A study of Capra hircus with 6 samples.

Results

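Molecular chaperones and protein folding enzymes are encoded by a set of gene families that could be read together on these arrays. Genes were taken by symbol: the heat shock protein families (HSPA to HSPE, HSPH and HSP90), the J-domain proteins (DNAJ), the protein disulfide isomerases (PDIA and P4HB), the subunits of the chaperonin TRiC (TCP1 and CCT2 to CCT8), calnexin (CANX), the BAG co-chaperones, and the prolyl isomerases of the FKBP and cyclophilin (PPI) families. The rule used names only and no measured ratio. It found 63 genes among the 6535 genes with a probe of 1 symbol, and each was read from its brightest probe. Some carry the name of a family without being known as chaperones, such as HSPBAP1, whose protein binds HSPB1, and DNAJC27, a small GTPase with a J domain.

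Chaperones bind proteins that are not folded and release them in cycles. In the cytosol HSP70 is loaded by J-domain proteins and emptied by exchange factors, HSP90 matures signalling proteins with the help of FKBP and cyclophilin co-chaperones, and TRiC folds actin and tubulin in a closed chamber. Proteins bound for secretion, which in a lactating mammary gland are chiefly milk proteins, fold in the endoplasmic reticulum (ER) with BiP, GRP94, disulfide isomerases and prolyl isomerases, while HSP60 and mortalin serve the mitochondrial matrix.

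RNA came from the lactating mammary gland of 3 goats with the Low genotype and 3 with the High genotype at CSN1S1, the gene of the milk protein alpha-s1-casein. Both groups had gone without food for 48 h, so no fed animal stands beside them and the comparison is between genotypes within food deprivation. A Low goat and a High goat formed each of the pairs A, B and C. The RNA of both was hybridized to the same array in different dyes, Cy3 and Cy5, and to another array with the dyes exchanged, which gave 6 arrays. Each value is a log2 ratio, Low over High, averaged over the 2 arrays of a pair, with n = 3 pairs of separate animals, and a ratio under 0 means less signal from the Low goat.

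The gene that defines the groups was read first. Its 6 arrays gave CSN1S1 ratios of -2.63 and -2.52 in pair A, -3.10 and -2.58 in pair B, and -2.57 and -2.88 in pair C, so the Low goat had the lower signal on every array. CSN1S1 fell by 2.71 ± 0.13 (SD, n = 3), 6.55-fold (limma adjusted p = 2.911e-09). Other genes of the secretory epithelium gave 0.55 (LALBA), 0.33 (CSN1S2), 0.06 (MUC1), 0.03 (KRT18) and 0.01 (ELF5). Below 0 were KRT8 (-0.07), CSN3 (-0.10), KRT19 (-0.13) and PAEP (-0.44, below 0 on 5 of 6 arrays). None of these genes passed (limma adjusted p from 0.1701 to 0.9431). For the genes below, fewer cells of a type and less RNA per cell cannot be told apart in tissue RNA. Of 8379 probes, 6733 stood above background in at least 6 of the 12 readings (6 arrays in 2 dyes), had a value on all arrays and were tested. Detection above background ranged from 66.3% to 77.3% of probes in the Cy3 readings and from 82.3% to 87.4% in the Cy5 readings. An array gives no count of molecules, and the number of pairs limits the precision.

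No chaperone or folding gene passed the test between the genotypes. Of the 63 genes 53 were tested, and 0 passed an adjusted p of 0.05 (limma with Benjamini-Hochberg adjustment over all tested probes), beside 0.446% of all probes. At an unadjusted p under 0.05 there were 6 of 53 genes, 11.3%, and the share over all probes was also 11.3%. Higher in Low among these were DNAJC12, BAG5 and PDIA5, where 5.79% of all probes were, and lower were HSPA2, FKBP5 and CCT6A, where 5.47% were. The mean ratios lay between -0.13 and 0.16. Of them 31 were above 0 and 22 below, against 51.8% and 48.2% of all probes, and the median was 0.018 against 0.0031. In size, 4 of the 53 ratios were past the 90th percentile of all probes (a log2 ratio of 0.098): DNAJC12, HSPA2, BAG5 and CCT6A. The sign was shared by all 3 pairs in 19 genes, 35.8%, against 35.5% of all probes.

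The limits that limma set on the fitted ratios were narrow. For 52 of the 53 genes the 95% interval of the log2 ratio from limma stayed within a 1.2-fold difference either way, as it did for 97.6% of all probes. The exception was HSPA8, with an interval from -0.19 to 0.36. For these intervals limma draws each gene's variance toward a value common to all probes, so they do not show the spread of its own pairs. P4HB had an interval from -0.15 to 0.16 and pair means from -0.24 to 0.18. CCT5 had an interval from -0.15 to 0.21 and pair means from -0.22 to 0.31. An offset of 50 intensity units, added before taking logs, draws ratios toward 0, and those of dim probes most. On simulated arrays the slope of fitted on set log2 ratios was 0.888 for the brighter and 0.624 for the dimmer changed probes. The intervals thus bound the fitted ratio rather than the ratio of transcripts.

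**Figure D1:**
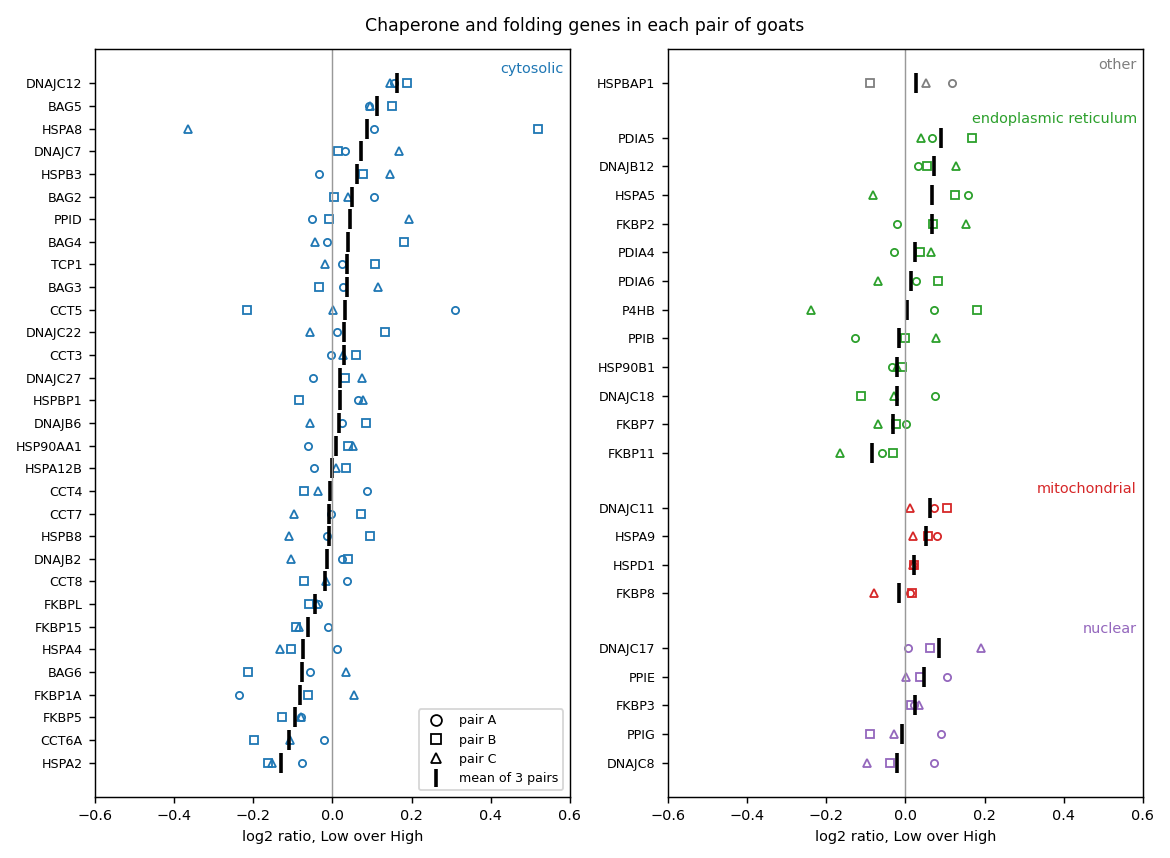
Log2 ratio of Low over High (x axis) of the 53 tested chaperone and folding genes (y axis), grouped by the compartment of their proteins; circles, squares and triangles are pairs A, B and C and black bars the mean of the 3 pairs. The means lie between -0.13 and 0.16, and HSPA8 has the widest spread, from -0.36 in pair C to 0.52 in pair B.

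In the cytosolic HSP70 cycle the J-domain protein gene DNAJC12, whose human product works with the aromatic amino acid hydroxylases, had the highest ratio. It gave 0.14 and 0.17 on the arrays of pair A, 0.30 and 0.07 in pair B, and 0.27 and 0.02 in pair C. All 6 arrays and all 3 pairs were thus above 0, and the pair means of 0.16, 0.19 and 0.14 lay close together. The mean was 0.16 ± 0.02 (SD, n = 3), a 1.12-fold higher signal with a 95% interval from 0.08 to 0.24, and it did not pass (limma adjusted p = 0.1701). This dim probe was detected above background 3 times of 6 in the Low goats and 3 of 6 in the High goats. The levels of the goats overlapped, at 7.14, 7.12 and 7.36 in the Low and 6.98, 6.93 and 7.22 in the High goats on the normalized log2 scale.

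BAG5, a co-chaperone that binds HSP70, was also above 0 on all 6 arrays. Its ratios were 0.0018 and 0.18 in pair A, 0.07 and 0.23 in pair B, and 0.13 and 0.06 in pair C. The mean was 0.11 ± 0.03 (SD, n = 3; interval from 0.03 to 0.20, adjusted p = 0.3316), from a probe above background in all 12 readings. HSPA2, an HSP70 known for its high level in the testis, was the only tested member below 0 on all 6 arrays, at -0.03 and -0.12 in pair A, -0.11 and -0.22 in pair B, and -0.06 and -0.25 in pair C. Each pair was lowest on the array whose Low goat carried Cy3. HSPA2 averaged -0.13 ± 0.05 (SD, n = 3), 1.09-fold lower with an interval from -0.22 to -0.05, and did not pass (adjusted p = 0.3023).

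Together these 3 genes are 5.66% of the 53 tested, where 2.99% of all probes had 1 sign on all 6 arrays. For DNAJC12 and BAG5, above 0, the share over all probes was 1.13%, and for HSPA2, below 0, it was 1.86%. Levels also varied between goats of a genotype. BAG5 stood at 9.06, 9.49 and 9.18 in the Low goats of pairs A, B and C and at 8.97, 9.34 and 9.09 in the High goats, so the groups overlapped although every Low goat was above its own partner. For HSPA2 the Low goats stood at 8.26, 7.89 and 8.30 and the High goats at 8.33, 8.06 and 8.45. Levels of Low and High goats did not overlap in 0 of the 53 genes, against 1.16% of all probes.

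The remaining parts of the HSP70 cycle had mean ratios nearer 0. HSPA4, an exchange factor of the HSP110 type, was at 0.01, -0.10 and -0.13 for pairs A, B and C (mean -0.07 ± 0.08, SD, n = 3). DNAJC7, which links HSP70 to HSP90, was at 0.03, 0.01 and 0.17. BAG3, a co-chaperone of selective autophagy, was at 0.03, -0.03 and 0.12 (adjusted p = 0.7358), and BAG6, which guards tail-anchored membrane proteins, at -0.06, -0.21 and 0.03. Over the 6 exchange factors and co-chaperones (the BAG genes and HSPBP1) 5 were above 0 with a median of 0.039, and over the 11 tested of 18 J-domain genes of all compartments 8 were above 0 with a median of 0.029.

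HSPA8 encodes HSC70, the constitutive HSP70 of the cytosol, and it varied more between pairs than any other member. Its arrays gave 0.04 and 0.17 in pair A, 0.49 and 0.55 in pair B, and -0.31 and -0.42 in pair C. The 2 arrays of each pair gave nearly the same ratio with the dyes exchanged, and the pairs disagreed: the Low goat was higher in pairs A and B and lower in pair C. The mean of 0.09 ± 0.44 (SD, n = 3; adjusted p = 0.8019) lay near pair A and far from pairs B and C. The SD between pairs ranked 7 of 6733 tested probes from the top, while the median SD was 0.075 over the tested members and 0.061 over all probes. Most of the spread was among the Low goats, whose levels were 9.15, 9.39 and 8.40 for pairs A, B and C (SD 0.52), against 9.04, 8.87 and 8.76 in the High goats (SD 0.14). Without pair C the mean ratio was 0.31, and without pair B it was -0.13.

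P4HB, the gene of protein disulfide isomerase itself, was divided in the same direction, with 0.09 and 0.05 in pair A, 0.35 and 0.02 in pair B, and -0.09 and -0.39 in pair C. Its pair means were 0.07, 0.18 and -0.24, its mean 0.0047 ± 0.22 (SD, n = 3; adjusted p = 0.9824), and its SD ranked 73 of 6733. HSPA5 encodes BiP, the HSP70 of the ER lumen and a classic target of the unfolded protein response. Its arrays gave 0.06 and 0.26 in pair A, 0.21 and 0.04 in pair B, and -0.10 and -0.07 in pair C, a mean of 0.07 ± 0.13 (SD, n = 3; adjusted p = 0.6195). The P4HB and HSPA5 probes were each detected above background 4 times of 6 in the Low goats and 4 of 6 in the High goats.

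HSPA8, P4HB, HSPA5 and DNAJC27 were the members whose dye-swapped arrays shared a sign within every pair while the pairs differed in sign. These 4 are 7.55% of the tested genes, against 3.37% of all probes, and DNAJC27 was small, at -0.05, 0.03 and 0.07. Including DNAJC12, BAG5 and HSPA2, the 2 arrays of every pair shared a sign in 7 genes, 13.2%, against 6.36% of all probes.

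The heat-inducible partners of HSPA8 were looked at in the same pairs, chosen after these values were seen. DNAJB1, the inducible J-domain partner of HSP70, was too dim to be tested, with 1 Low and 3 High readings above background, and gave 0.02, 0.17 and -0.53 for pairs A, B and C. A probe annotated with the symbol HSPA1A 2 times, the stress-inducible HSP70, is not a member under the rule and gave -0.01, 0.17 and -0.26 (mean -0.03 ± 0.22, SD, n = 3; adjusted p = 0.8784). HSPA8 and P4HB share with this probe an order in which pair B was the highest and pair C the lowest. The DNAJB1 values had that order too, but they rest on few readings above background. Among the 53 tested genes 15 had that order, 28.3%, against 17.6% of all probes, and TCP1, PDIA6 and DNAJC11 were among them with smaller differences. HSPA8 and P4HB, from which the order was read, are counted among the 15. The shares are thus a description and no test. HSP90AA1, the inducible HSP90, was at -0.06, 0.04 and 0.05 (mean 0.0095, adjusted p = 0.9433). Its mean was 0.11 when spots marked manual or poor were kept. HSP70 genes are alike in sequence, and how far the probe of one of them also read its relatives was not tested.

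**Figure D2:**
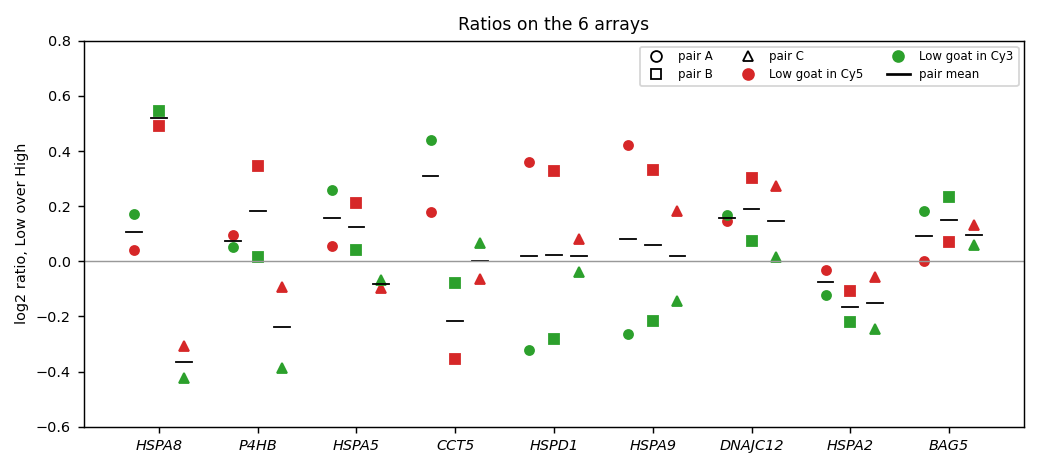
Log2 ratio of Low over High (y axis) on each of the 6 arrays for 9 chaperone genes (x axis); shape gives the pair, colour the dye of the Low goat and black dashes the pair means. For HSPA8 both dyes of a pair lie together and pairs B and C are far apart, whereas for HSPD1 and HSPA9 the dyes lie apart and the pair means coincide near 0.

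**Figure D3:**
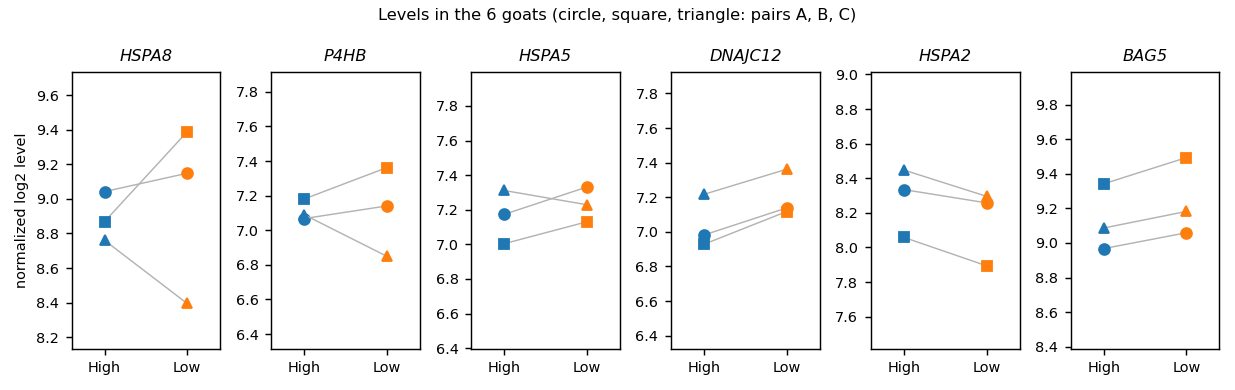
Normalized log2 level (y axis, each panel spanning the same range of log2 units) of 6 chaperone genes in the High and Low goats (x axis), with lines joining the goats of a pair; circles, squares and triangles are pairs A, B and C. The HSPA8 levels of the Low goats run from 8.40 to 9.39 and those of the High goats from 8.76 to 9.04, while for DNAJC12, HSPA2 and BAG5 the 3 lines have 1 direction and the groups overlap.

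Subunits of TRiC, the cytosolic chaperonin, did not share a direction. Of 8 subunit genes 7 were tested, 3 above 0 and 4 below, with a median of -0.0070. CCT6A, the zeta subunit, was at 0.02 and -0.06 on the arrays of pair A, -0.15 and -0.25 in pair B, and -0.13 and -0.09 in pair C, below 0 on 5 of 6 arrays. Its mean was -0.11 ± 0.09 (SD, n = 3; adjusted p = 0.396). TCP1, the alpha subunit, was at 0.03, 0.11 and -0.02 (mean 0.04 ± 0.06; adjusted p = 0.7237). CCT5, the epsilon subunit, was divided between pairs, at 0.31, -0.22 and 0.0007, with a between-pair SD of 0.26 that ranked 36 of 6733 probes. Another CCT5 probe gave 0.08, -0.14 and 0.11, so pair B was the lowest and below 0 with either probe, while pair C differed between the probes.

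Of the cytosolic partners of HSP90, FKBP5 encodes FKBP51, which glucocorticoids induce in many tissues. Its arrays gave -0.38 and 0.22 in pair A, 0.09 and -0.34 in pair B, and -0.09 and -0.07 in pair C, so the arrays of pairs A and B had opposite signs and the pair means of -0.08, -0.13 and -0.08 were much closer than the arrays. The mean was -0.10 ± 0.03 (SD, n = 3; adjusted p = 0.3896) from a dim probe that was detected above background 2 times of 6 in the Low goats and 4 of 6 in the High goats. It depended on the processing: the FKBP5 ratio was -0.43 with plain background subtraction, -0.205 with the authors' series values, -0.19 without the pair A array whose Low goat carried Cy3, -0.03 with every spot marked by the scanner software left out, and 0.0041 without the pair A array whose Low goat carried Cy5. FKBP1A, which encodes FKBP12, the binder of the drug FK506, was at -0.24, -0.06 and 0.05. PPID, cyclophilin 40 and a partner of HSP90, was at -0.05, -0.01 and 0.19. Over the FKBP family as a whole, in all compartments, 7 of 9 tested genes were below 0 with a median of -0.045, and 0 passed. The small heat shock genes HSPB3 and HSPB8 averaged 0.06 and -0.0095.

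In the ER, 12 of 14 genes were tested, 7 above 0 and 5 below, with a median of 0.0091. The 4 disulfide isomerases tested were all above 0 and all small, with a median of 0.019. PDIA5 was the largest of these, with pair means of 0.07, 0.17 and 0.04 and a mean of 0.09 ± 0.07 (SD, n = 3; adjusted p = 0.4412). Its arrays spread far more than its pairs, from -0.40 to 0.74, with every array above 0 where the Low goat was in Cy3 and below 0 where it was in Cy5. PDIA4, which encodes ERp72, averaged 0.02 ± 0.05 (adjusted p = 0.8254), and PDIA6, which encodes P5, 0.01 ± 0.08 (adjusted p = 0.9194).

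The further ER genes named here had mean ratios from -0.09 to 0.07. HSP90B1, the gene of GRP94, gave -0.03, -0.01 and -0.02 for pairs A, B and C and averaged -0.02 ± 0.01 (SD, n = 3; interval from -0.10 to 0.06, adjusted p = 0.8467). PPIB, cyclophilin B, gave -0.13, -0.0002 and 0.08 (adjusted p = 0.8991). FKBP11, a prolyl isomerase known from secretory cells, had all 3 pairs below 0, at -0.06, -0.03 and -0.17 (mean -0.09 ± 0.07, SD, n = 3; adjusted p = 0.459). FKBP2, another prolyl isomerase of the ER, was at -0.02, 0.07 and 0.15 (adjusted p = 0.5656). DNAJB12, an ER membrane protein whose J domain faces the cytosol, had all 3 pairs above 0, at 0.03, 0.05 and 0.13 (mean 0.07 ± 0.05, limma adjusted p = 0.5039). Its arrays lay between -0.34 and -0.23 when the Low goat carried Cy5 and between 0.35 and 0.48 when it carried Cy3. For PPIB and FKBP2 too, the sign followed the dye of the Low goat on all 6 arrays.

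Mitochondrial members had the closest pair means, with a median SD between pairs of 0.039 over 4 genes, against 0.076 over the cytosolic and 0.074 over the ER genes. HSPD1, which encodes the chaperonin HSP60, read 0.36 and -0.32 in pair A, 0.33 and -0.28 in pair B, and 0.08 and -0.04 in pair C. The arrays whose Low goat carried Cy5 were all above 0 and the others all below, and they cancelled to pair means that each rounded to 0.02. HSPD1 thus averaged 0.0203 ± 0.0011 (SD, n = 3, interval from -0.06 to 0.10, limma adjusted p = 0.8476), and its SD ranked 6732 of 6733 probes. That SD is below the 0.040 between its duplicate spots, so the pair means were closer than the spots can resolve. The goats themselves differed more, between 12.63 and 13.11 in the Low and between 12.61 and 13.09 in the High, both with their highest value in pair B.

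HSPA9, the gene of mortalin, had pair means of 0.08, 0.06 and 0.02 (mean 0.05 ± 0.03, SD, n = 3; adjusted p = 0.6032), and its arrays ran from -0.26 to 0.42. DNAJC11, a J-domain protein of the outer membrane, was at 0.07, 0.10 and 0.01 (adjusted p = 0.548). FKBP8, an outer-membrane prolyl isomerase, was at 0.01, 0.02 and -0.08 (mean -0.02 ± 0.05; adjusted p = 0.8856). In the nucleus, DNAJC17 was at 0.01, 0.06 and 0.19 (mean 0.09 ± 0.10; adjusted p = 0.4809), where the highest value came from a single array at 0.37. PPIE, a cyclophilin of the spliceosome, averaged 0.05 ± 0.05, and FKBP3, a nuclear prolyl isomerase, 0.02 ± 0.01. DNAJC8, which associates with the spliceosome, averaged -0.02 ± 0.09, and its other probe -0.0041.

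The compartments were compared by their medians, which carry no test because their members were picked by name with results of these data known. The median ratio was 0.017 over 31 cytosolic, 0.0091 over 12 ER, 0.036 over 4 mitochondrial and 0.023 over 5 nuclear genes. Cytosolic medians were -0.0033, 0.013 and -0.017 for pairs A, B and C, ER medians 0.014, 0.045 and -0.024, and mitochondrial medians 0.046, 0.040 and 0.015. The ER median minus the cytosolic one was 0.017, 0.031 and -0.0075 in the pairs, so it changed sign with an SD of 0.020. The ER median minus the mitochondrial one was -0.032, 0.0047 and -0.039 (SD 0.024). Mitochondrial members were above cytosolic ones in all 3 pairs, by 0.049, 0.027 and 0.032 (SD 0.012). That difference rests on 4 genes and did not have 1 sign by dye, since the mitochondrial median was 0.28 on the arrays whose Low goat carried Cy5 and -0.20 when it carried Cy3, whereas the cytosolic median was -0.015 and 0.034.

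**Figure D4:**
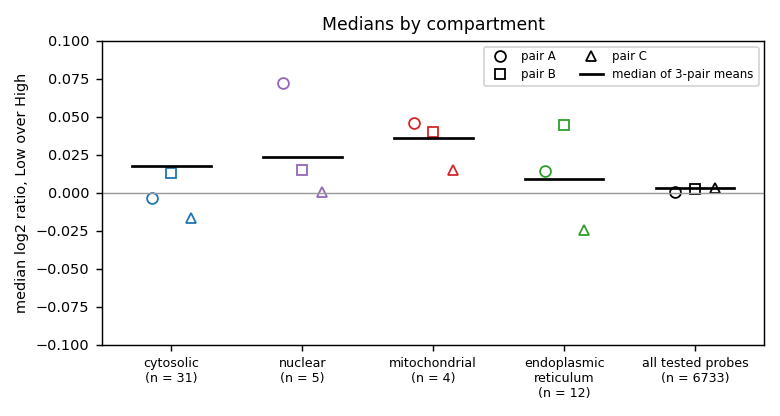
Median log2 ratio of Low over High (y axis) of the tested genes of each compartment and of all tested probes (x axis, with the number of genes or probes); open symbols are the medians withfor pairs A, B and C and black bars the medians of the 3-pair means. The mitochondrial medians, 0.046, 0.040 and 0.015, are above 0 in every pair, and the ER and cytosolic medians lie on both sides of 0.

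The dye of the Low goat went with larger differences than the genotype for many of these genes. In 18 of the 53 genes, 34.0%, the sign of the ratio followed the dye of the Low goat on all 6 arrays, against 33.6% of all probes. They were 7 of the cytosolic, 6 of the ER, 1 of the nuclear and 3 of the 4 tested mitochondrial genes (HSPD1, HSPA9 and DNAJC11), and HSPBAP1. The largest was FKBP2, at 0.47, 0.58 and 0.52 when the Low goat carried Cy5 and -0.51, -0.44 and -0.22 when it carried Cy3. The effect of the dye exceeded the mean ratio in 39 of the 53 genes, against 74.4% of all probes. An equal dye effect cancels when a pair's dye-swapped arrays are averaged, and only pair means were tested. Across the 53 genes, which are not independent replicates, the 2 arrays of a pair correlated at r = -0.67, -0.51 and -0.24 for pairs A, B and C once turned to Low over High.

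After averaging, the ratios of these genes correlated weakly between pairs. Across the 53 genes the pair means had a Pearson correlation of 0.16 between A and B, -0.08 between A and C and -0.16 between B and C, against 0.26, 0.28 and 0.36 across all tested probes but CSN1S1, the 53 genes included. HSPA8 alone turned the value between B and C, which was 0.15 over the 52 genes without it, while the other values were 0.093 and -0.013. All tested probes include others that passed and large ratios such as that of LALBA, whereas none of the 53 genes passed, and the effect of this on the correlations was not tested. The share with 1 sign in all 3 pairs was 35.8% of the genes and 35.5% of all probes. These correlations share arrays and normalization within a pair and are descriptions only.

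**Figure D5:**
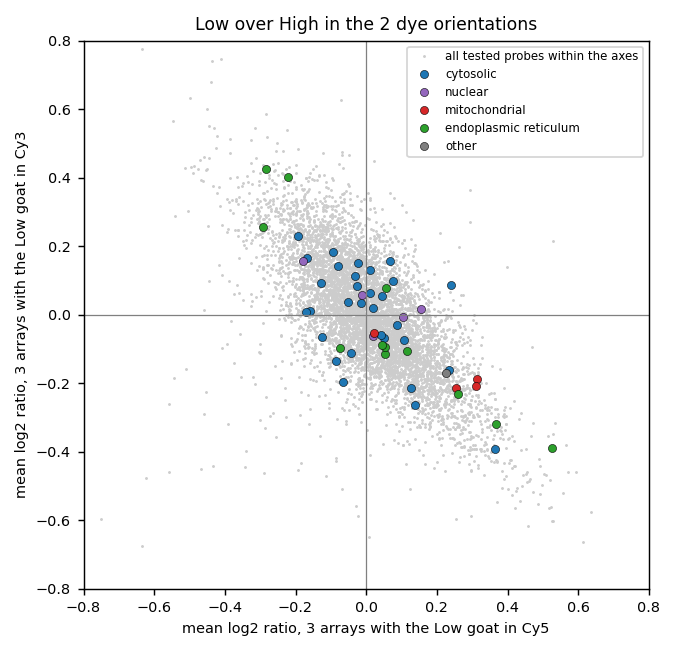
Mean log2 ratio of Low over High on the 3 arrays whose Low goat carried Cy3 (y axis) against the 3 arrays when it carried Cy5 (x axis), for the 53 tested genes coloured by compartment and all tested probes in grey. Most points follow the falling diagonal, where the sign follows the dye. The lower right holds 3 of the 4 mitochondrial genes and also genes of other compartments. Among these are the cytosolic DNAJB2 and the ER genes PDIA4, PDIA6 and FKBP2, with FKBP2 farthest to the right.

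The 10 genes that were not tested were dim. CCT2 was above background in 2 Low readings and 0 High readings, and DNAJC13 and DNAJC2 in 1 High reading and 0 Low readings, and their brighter genotype did not exceed the lowest detectable signal of the other, so no fold is given. DNAJB9 (an inducible partner of BiP known as ERdj4), FKBP9, DNAJC19 (part of the mitochondrial import motor), DNAJC4 and PPIF (cyclophilin D) were not well above background in any reading of either genotype. DNAJB1 and DNAJB5 were above it in 4 and 5 of the 12 readings. At the other end, 36 of the 63 genes, 57.1%, were above background in all 12 readings. CANX, PDIA3, DNAJB11, DNAJC3, HSP90AB1, HSPH1, HSPB1, HSPE1, DNAJA1, DNAJA3, PPIA and FKBP4 are textbook members that are not analysed here, because no probe was given as theirs alone.

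Genes that work beside these families did not pass either. Of 63 other folding factors (prefoldins, HSP90 and HSP70 co-chaperones, lectins and oxidases of the ER), 37 were on the array and 31 tested, with 16 above 0, 15 below and a median of 0.0011. CALR, the lectin chaperone calreticulin, was at -0.11, -0.09 and -0.10 for pairs A, B and C (limma adjusted p = 0.3654). Its arrays, however, were near -0.25 when the Low goat carried Cy5 and between 0.02 and 0.08 when it carried Cy3. CALR levels of Low and High goats did not overlap, as in 1.16% of all probes. PFDN5, a prefoldin subunit, was at 0.08, 0.11 and 0.11 (adjusted p = 0.3731), and CLU, the extracellular chaperone clusterin, at -0.06, -0.26 and -0.06 (adjusted p = 0.3825). Of 26 genes of the unfolded protein and heat shock responses 10 were tested, 6 above 0 and 4 below with a median of 0.0098. ATF4, a transcription factor of the stress response, was at 0.07, 0.20 and 0.03, MBTPS1, the protease that activates ATF6, at -0.05, 0.18 and 0.21, and TRIB3, a target of ATF4, at 0.03, 0.07 and 0.08. No tested gene of either list passed (0 called in limma), beside 0.446% of all probes.

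Markers of other cells in the gland gave no call, and their part in the ratios above was not tested. Their lists had 4 myoepithelial, 8 leukocyte, 3 fibroblast, 4 adipocyte and 3 endothelial genes tested, with median ratios of -0.039, 0.013, -0.11, -0.027 and -0.0043. In the fibroblast list SPARC (-0.13) and VIM (-0.11) were below 0 on all 6 arrays, as were 1.86% of all probes, and DCN was at 0.0031. SPARC levels of Low and High goats did not overlap, as in 1.16% of all probes. The SPARC probe was dim, above background 3 times of 6 in the Low goats and 4 of 6 in the High goats. In the leukocyte list 5 genes were above 0 and 3 below, with FCGR2B at 0.15, CD68 at 0.12 and ITGB2 at -0.16. In the myoepithelial list KRT17 had the smallest unadjusted limma p, at -0.10, with 1 gene above 0 and 3 below. In the adipocyte list it was LEP, at -0.27, with 2 above and 2 below. In the endothelial list it was CDH5, at -0.08, with 1 above and 2 below. The mean level over the leukocyte list was 9.40 to 9.49 in the Low goats and 9.38 to 9.45 in the High goats, and over the fibroblast list 9.52 to 9.85 and 9.62 to 9.90. COL3A1, a fibroblast marker, and S100A8, a neutrophil marker, were not well above background in any reading. The milk protein genes CSN1S1, CSN1S2, CSN3, LALBA and PAEP, which mark the lactating gland, were above it in all 12 readings, and of 10 tested milk protein and luminal genes CSN1S1 alone passed.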

How the data were processed

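The deposited scanner files give signal and background intensity per spot and dye, linear and without background subtraction, read with ImaGene 6.0 per the labels; headers matched the labelled goat and dye in 12 of 12 files. The authors' own log2 ratios, deposited as a value table, served as an alternative (correlation with the ratios fitted here 0.927 to 0.973 per array, slopes 1.10 to 1.26, medians -0.014 to 0.0034); how they were centred is unknown. The ratios here were made with limma 3.58.1 (R 4.3.3): normexp background correction with an offset of 50, then loess within each array without blank, empty, manual or poor spots. Spots marked manual or poor, 26 to 67 on an array, gave no value, and no member had a saturated spot. Duplicate spots were averaged, every ratio was put as Low over High, and dye-swapped arrays were averaged within pairs. Probes more than 2 background SDs above background in at least 6 of 12 readings were fitted with lmFit and eBayes (pair means against 0, Benjamini-Hochberg adjustment). Goat levels are single-channel values after loess and Aquantile. Symbols come from the platform annotation; all 63 member symbols occur in a RefSeq table of goat genes, used for names only. Compartments and roles were assigned by hand. Members, lists and tests were chosen with earlier results of these data known. Named were, in each compartment, the 4 tested genes of smallest p, genes with 1 sign on all 6 arrays, textbook members, genes not above background in 1 genotype, and up to 3 genes of smallest p per further list; other genes were named after their values were seen. The fit was also run on simulated arrays with 200 probes changed 1.25-, 1.5- or 2-fold, up or down. Fitted log2 ratios had a slope of 0.754 on the set ones. The slope was 0.888 for changed probes brighter than their median signal and 0.624 for the dimmer ones. Unchanged probes made up 6.19% of the calls. The simulated noise between pairs was of 1 size for all probes, which it is not in the data.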

Additional observations from a re-analysis of the deposited data

Results flagged for a closer look

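A single array stood apart from the other 5 for 4 of the 37 genes examined, by the gap to its nearest neighbour over the whole range (above Dixon's critical value for 6 values at the 95% level), where chance alone gives about 1 in 20 for independent values. The 6 arrays are not independent, since they hold 3 pairs of goats in 2 dye orientations, so that rate is only a guide. CCT2, the dim TRiC subunit, was at 0.4044 on the pair B array whose Low goat carried Cy3, with 0.0725 next and -0.1188 farthest (gap 0.634 of the range). DNAJC17, the nuclear J-domain gene, was at 0.374 on the pair C array whose Low goat carried Cy5, with 0.0791 next (0.787). FKBP8, of the mitochondrial outer membrane, was at -0.1529 on the pair C array whose Low goat carried Cy3, with -0.0154 next (0.719). PPIE, the spliceosomal cyclophilin, was at 0.2204 on the pair A array whose Low goat carried Cy5, with 0.0634 next (0.642).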

How the results depend on the processing

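Members past the threshold numbered 0 in 23 of 25 alternatives. The exceptions use the arrays of 1 dye orientation only, where dye and genotype cannot be told apart by construction: 13 members passed with the Low goat in Cy5 and 19 with it in Cy3, among 1153 and 2460 probes over the array. A named gene is given as reversed where its sign turned and it passed. With the Low goat in Cy5 these were DNAJB12 (-0.2826) and PDIA5 (-0.2218); with it in Cy3 they were DNAJC11 (-0.1885), FKBP2 (-0.3909), HSPA9 (-0.208), HSPBAP1 (-0.1707), HSPD1 (-0.2144), PDIA4 (-0.318), PDIA6 (-0.2322), PPIB (0.2569) and TCP1 (-0.1605).

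Medians moved likewise with the Low goat in Cy5 and in Cy3, to -0.0153 and 0.0343 (cytosolic), 0.0539 and -0.0962 (ER), and 0.2835 and -0.1982 (mitochondrial). Without background correction the cytosolic median was -3e-04, and with median centring the mitochondrial one was 0.0642; the cause was not tested. Leaving out each pair or array in turn gave -0.0108 (without pair B) to 0.0164 for the cytosolic median, -0.06 to 0.0399 for the ER median and -0.0551 to 0.1327 for the mitochondrial median, with the lowest ER and mitochondrial values without the pair B array with the Low goat in Cy5.

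DNAJC12 lay between 0.086 and 0.49, HSPA2 between -0.20 and -0.066 and BAG5 between 0.065 and 0.16 in the alternatives that gave a value. None of them passed outside the single dye orientations. DNAJC12 had no value with every spot marked by the scanner software left out, and its 0.49 came with plain background subtraction. P4HB, near 0, turned sign in 11 of 25 alternatives. Over the array, 30 probes passed, 66 without pair A, 23 without B, 41 without C, 3 to 11 without 1 array, 1 with plain subtraction, 19 with an offset of 10 or the signal median, 59 with 6 arrays in 1 fit with a dye term and the pair as a random block, and 0 with the goats unpaired, where 11 probes and 0 members had an unadjusted p under 0.05. Signal over background kept 10 of the 63 members out of the test.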
